A study of Mus musculus with 6 samples.

Results

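The interleukin-6 (IL-6) family genes and their STAT3 output were examined in optic nerve RNA as 10 genes chosen by name: the ligand genes Cntf, Lif, Osm, Il6 and Clcf1, the receptor genes Il6st, Lifr and Il6ra, the transcription factor gene Stat3 and its feedback inhibitor Socs3. All 10 were among the 25755 genes of the table. Whole optic nerves came from 3 sham mice (mice 1 to 3) and 3 mice with optic nerve crush (ON-CR, mice 4 to 6), all NF1flox/flox;hGFAP-Cre and all labelled 3 months old, and the labels give each bulk RNA sequencing library 1 mouse. Surgery was at 6 weeks of age and analysis at 12 weeks, and the sham operation was an incision without crush. The human GFAP promoter controls Cre in these mice, which removes Nf1 in neuroglial progenitors and in the cells derived from them. Sham and ON-CR mice alike carried the deletion, so the comparison was of crush against sham within Nf1-deficient nerves, with no group of intact Nf1.

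Cytokines of this family act through a shared receptor chain, gp130, the product of Il6st. Each ligand joins gp130 with partner chains: IL-6 with the IL-6 receptor (Il6ra), LIF with the LIF receptor (Lifr), CNTF and the CLCF1 complex with the CNTF receptor (Cntfr) and Lifr, and mouse oncostatin M mainly with the oncostatin M receptor (Osmr). JAK kinases bound to these chains phosphorylate STAT3, which enters the nucleus and switches on genes that include its own brake, Socs3. In the optic nerve and retina, CNTF and LIF are best known as glial factors that act on injured retinal ganglion cells and on astrocytes, in which STAT3 is a driver of the reactive state.

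Values are gene counts that the authors divided by one factor per library, called normalized values here. Each library held between 17414091 and 23621006 estimated reads, and the deepest ON-CR library (18978379) had fewer than the shallowest sham library (19892892). Optic nerve was recognisable by its glia, with summed values of 7 astrocyte markers of 115724 to 141125 in sham mice and 109174 to 126006 in ON-CR mice. Among these 7, Aqp4 (log2 fold change 0.43) and Slc1a3 (0.31) were higher in every ON-CR mouse than in every sham mouse. Aldoc (-0.62) and Gjb6 (-0.42) were lower in every one, the other markers overlapped, and none of the 7 was called. Microglia and macrophage markers, summed over 9 genes, were at 15937 to 20468 in sham mice and 21218 to 32057 in ON-CR mice. The groups did not overlap, and 3 of the 9 genes (Aif1, C1qa and Cd68) were called higher, against 0.971% of all genes. The microglial genes Tmem119 (log2 fold change -0.27, every ON-CR mouse below every sham mouse) and P2ry12 (-0.35) were on the other side and not called. Summed values of 6 T cell markers were 146 to 415 in sham mice and 165 to 1101 in ON-CR mice. For 6 B and plasma cell markers they were 279 to 2103 and 148 to 98013, and the highest values of both lists were those of ON-CR mouse 6. Summed markers of airway and gland epithelium, a tissue outside the nerve, reached 8388 in sham mouse 3, while ON-CR mice 5 and 6 had 5561 and 6304 and the other libraries 38.9 to 267. Their part in the results below was not tested. Nf1 itself, which both groups lack in the same cells, was between 343 and 447 in all 6 mice. Sex-linked transcripts differed between the groups, as Xist was between 2.14 and 30.9 in sham mice and between 2708 and 6357 in ON-CR mice, while the Y-linked Ddx3y was between 1291 and 1645 in sham mice and at 976, 4.19 and 0 in ON-CR mice 4, 5 and 6. The library labelled ON-CR mouse 4 thus held both transcripts (Xist at 2708), unlike the other 5, and whether it came from 1 animal cannot be told here. Injury and sex therefore cannot be told apart for any gene below, and in whole nerve a change in the number of cells of a type cannot be told apart from a change in RNA per cell. The study's methods give more than 1 mouse per sample for optic nerve RNA in real-time PCR. For sequencing they give no number of mice per library. A mouse below is thus a library as labelled, and n counts libraries.

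Of the 10 genes, 8 had a positive log2 fold change after ON-CR and 1, Cntf, was called higher (adjusted p at or under 0.05 by limma, a linear model fitted to all genes on log2(value + 1), with Benjamini-Hochberg adjustment over the whole table). None was called lower. Over all genes 0.971% were called higher (250 genes) and 1.13% lower (290 genes), a split that became 421 higher and 195 lower when values were scaled to the library total. For 6 of the 10, the ON-CR mice all lay above the sham mice, against 10.5% of all genes with groups apart in this direction. In the other direction, which 11% of all genes showed, there were 0 of the 10. The 10 were chosen with earlier results of these data known, so these counts are description only. The median log2 fold change of the 10 was 0.74, against 0.03 over all genes, and the ligand genes (median 1.09 over 5 genes) were above the receptor genes (median -0.03 over 3 genes).

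**Figure D1:**
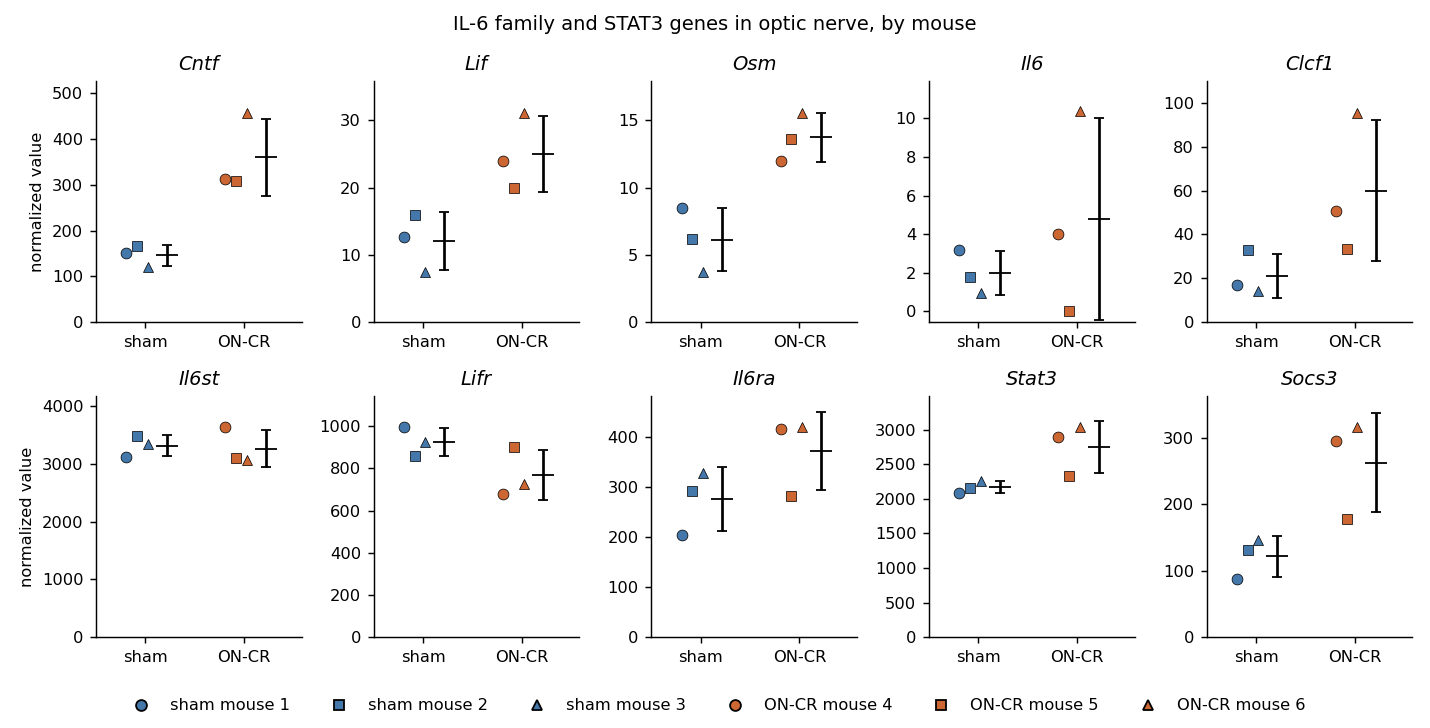
Normalized value (vertical axis, linear, one scale per gene) of each of the 10 genes in 3 sham and 3 ON-CR mice. Points are mice, and the bar beside them is the mean with its SD. Cntf, Lif, Osm, Clcf1, Stat3 and Socs3 are higher in every ON-CR mouse than in any sham mouse, while Il6st, Lifr, Il6ra and Il6 overlap.

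Cntf encodes ciliary neurotrophic factor, a cytosolic ligand without a signal peptide that glia release on injury. It lies on chromosome 19 of GRCm38 from 12763660 to 12765632, on the minus strand (ENSMUSG00000079415.2). It was measured at 152, 166 and 120 in sham mice 1, 2 and 3, against 313, 308 and 457 in ON-CR mice 4, 5 and 6. The lowest ON-CR mouse was thus well above the highest sham mouse, and ON-CR mouse 6 was the highest. Means were 146 ± 23.2 and 360 ± 84.8 (SD, n = 3 each), a 2.47-fold difference. The log2 fold change was 1.28 (standard error 0.21, 95% interval 0.82 to 1.74, adjusted p = 0.0132 by limma). The call was lost when any sham mouse was left out (adjusted p = 0.0585, 0.0530 and 0.0586 by limma without sham mice 1, 2 and 3) and without ON-CR mouse 6 (0.0968), while the log2 fold change stayed between 1.10 and 1.38. It was kept without ON-CR mouse 4, the library with both Xist and Ddx3y (adjusted p = 0.0242 by limma), and without ON-CR mouse 5 (0.00863).

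Most of the Cntf exons are also exons of a longer gene. In the GENCODE M21 annotation, exons of Zfp91, which encodes a zinc finger ubiquitin ligase, lie on the same strand and cover 847 of the 1073 exon bases of Cntf, or 78.9%. Reads there could have been given to either gene. Zfp91 had values of 1229, 1318 and 1224 in sham mice, against 1344, 1096 and 1195 after ON-CR, which overlapped (log2 fold change -0.06, 95% interval -0.32 to 0.20, and 0.0713 with scaling to the library total). As a percentage of Zfp91, Cntf was at 12.3%, 12.6% and 9.82% in sham mice and at 23.3%, 28.1% and 38.3% in ON-CR mice. The groups stayed apart on this ratio.

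**Figure D2:**
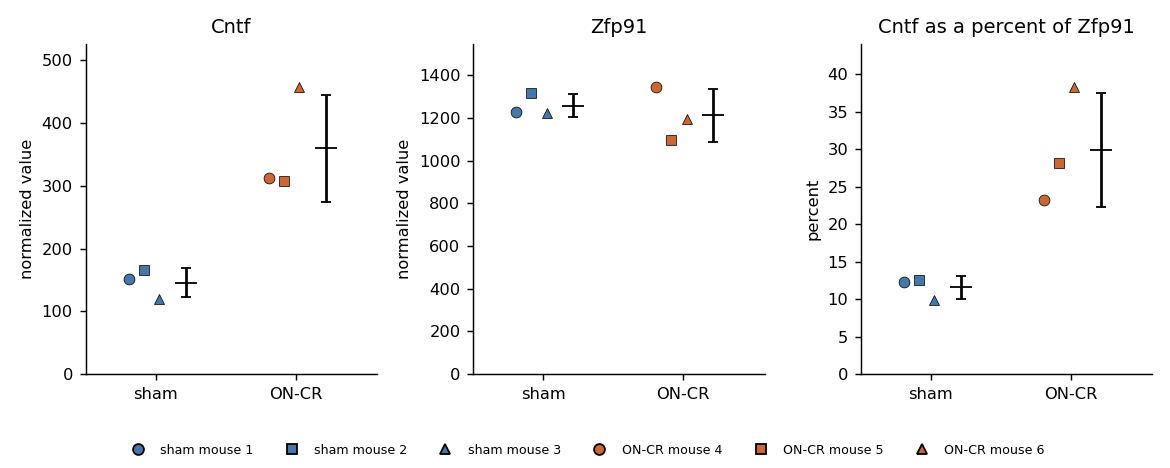
Normalized values of Cntf (left) and of Zfp91 (middle), and Cntf as a percentage of Zfp91 (right), on linear axes from 0. Points are mice and the bar is the mean with its SD. Zfp91 is at 1096 to 1344 in all 6 mice, whereas the percentage is at most 12.6% in sham mice and at least 23.3% in ON-CR mice.

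The bases just before the Cntf start site are shown because Cntf was the one gene of the 10 that was called. RefSeq places them at chr19:12765633-12765882 of GRCm38.p6, minus strand, printed 5′ to 3′ and ending at the base before transcription starts. Capitals mark the letters TGANTCA, a loose form of the pattern bound by AP-1 factors in which N is any base. The first of them is 245 bases before the start.

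Cntf: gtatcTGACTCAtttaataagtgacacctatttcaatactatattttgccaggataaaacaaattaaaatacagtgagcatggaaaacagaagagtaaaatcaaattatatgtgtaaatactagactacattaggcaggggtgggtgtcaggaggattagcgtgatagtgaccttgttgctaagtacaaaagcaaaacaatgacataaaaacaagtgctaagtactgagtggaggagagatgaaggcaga

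RefSeq promoter windows of 300 bases (250 before and 50 from the start) were found for 8 of the 10 genes, all but Osm and Clcf1. The AP-1 letters were in the windows of 3 of these, all ligand genes (Cntf, Lif and Il6), against 7.81% of all 32851 windows. Among the other family genes they were in the windows of the receptor gene Osmr, which was called higher, and of the ligand gene Il11, whose log2 fold change was -0.63 and which was not called, and they were in 0 of 18 windows of STAT3 target genes. The matches in Lif (chr11:4257329-4257357, plus strand), Il6 (chr5:30012864-30012882, plus strand) and Osmr (chr15:6874293-6874321, minus strand) are shown with the bases around them for comparison with the one in Cntf, capitals marking the same letters.
Lif: ccagtcagctgTGACTCAggccatagtgg
Il6: cTGAGTCActtttaaagaa
Osmr: tgccccgtagtTGATTCAtagctggggcg
The Osmr match begins 3 bases after the start and has T at the N, whereas those of Cntf, Lif and Il6 lie before it and have C or G. The match of Il11, which is not printed, begins 98 bases before its start and has G at the N. AP-1 letters were 1 of 8 patterns searched on both strands, chosen for printing after the matches had been seen. A match of letters does not show a bound site.

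The other ligand genes were at low values. Clcf1, which encodes cardiotrophin-like cytokine factor 1, a second ligand of the CNTF receptor, had values of 17.0, 32.8 and 14.1 in sham mice, against 50.9, 33.5 and 95.5 after ON-CR. The groups were only just apart, since ON-CR mouse 5 (32 estimated reads) lay next to sham mouse 2 (37 estimated reads). Its log2 fold change, at 1.41, was the highest of the 10 (standard error 0.46, 95% interval 0.39 to 2.44), but its adjusted p was 0.167 by limma. Without ON-CR mouse 5 the log2 fold change was 1.76 and the adjusted p 0.0692 by limma. A gene annotated across Clcf1 and Pold4 shares 311 of the 3806 exon bases of Clcf1, on the same strand.

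Lif encodes leukemia inhibitory factor and Osm encodes oncostatin M, a ligand made chiefly by myeloid cells. They are neighbours on chromosome 11, Osm from 4236420 to 4241026 and Lif from 4257557 to 4272514, both on the plus strand. Lif had values of 12.7, 15.9 and 7.51 in sham mice, against 23.9, 19.9 and 31.2 after ON-CR. Osm had values of 8.49, 6.20 and 3.76 in sham mice, against 11.965, 13.6 and 15.6 after ON-CR. Both genes were higher in every ON-CR mouse than in every sham mouse, by 2.07-fold and 2.23-fold in the means, yet they rested on 8 to 30 and on 4 to 15 estimated reads per library. Neither passed the test (log2 fold change 1.03 with a 95% interval of 0.05 to 2.00 for Lif and 1.09 with an interval of -0.02 to 2.21 for Osm, adjusted p = 0.294 and 0.331 by limma).

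Il6 itself was barely detected. Its values were 3.18, 1.77 and 0.94 in sham mice, from 3, 2 and 1 estimated reads, and 3.99, 0 and 10.4 in ON-CR mice, from 4, 0 and 10 estimated reads. The groups overlapped, and the mice with the lowest and the highest value were both ON-CR mice. The log2 fold change of 0.45 had a 95% interval of -1.62 to 2.51 (adjusted p = 0.868 by limma) and was -0.34 without ON-CR mouse 6, so a difference of Il6 in either direction was not detectable at this depth. ON-CR mouse 6 had the highest value of all 6 mice for each of the 5 ligand genes, and it also had the highest summed T cell and B cell markers. Whether these cells had a part in its ligand values was not tested.

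Summed over the 5 ligand genes, normalized values were 193, 222 and 147 in sham mice, against 404, 375 and 610 after ON-CR. Cntf made up between 74.5% and 82.1% of that sum in all 6 mice, with the lower and the upper end in sham mouse 2 and ON-CR mouse 5. These shares are of values not divided by length. Divided by the length of all annotated exons, levels can be compared only roughly between genes, since the length of the transcripts present was not measured. The level of Cntf also depends on how reads in the exon bases it shares with Zfp91 were assigned, which is not known. In sham mice the order was Il6st at 298 ± 16.9 normalized values per kb of exon, Stat3 at 227 ± 8.72, Cntf at 136 ± 21.7, Lifr at 85.9 ± 6.33, Socs3 at 42.1 ± 10.7 and Il6ra at 31.9 ± 7.42 (SD, n = 3 each). The ligand genes Clcf1 (5.59 ± 2.64), Lif (2.77 ± 0.98), Osm (2.71 ± 1.04) and Il6 (0.81 ± 0.47) followed. Of neighbours in this order, Socs3 and Il6ra overlapped from mouse to mouse, as did Lif and Osm, and the ranges of the others were apart.

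With the same limits, in ON-CR mice Cntf was at 335 ± 79.0 per kb, beside Il6st at 294 ± 28.6 and Stat3 at 288 ± 39.4 (SD, n = 3 each). These 3 genes overlapped from mouse to mouse, so the order among them was not resolved after ON-CR, whereas in sham mice their ranges were apart. Socs3 (90.9 ± 25.9 per kb) and Lifr (71.3 ± 10.8 per kb) overlapped after ON-CR as well, and so did Osm (6.04 ± 0.80 per kb) and Lif (5.75 ± 1.31 per kb).

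**Figure D3:**
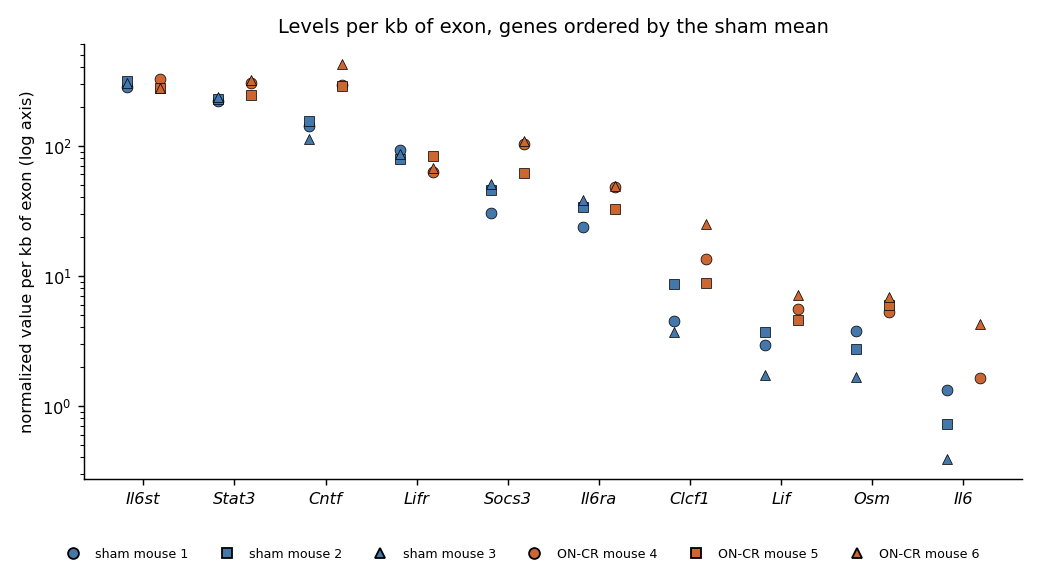
Normalized value per kb of exon (vertical log axis) of the 10 genes in each sham (blue) and ON-CR (orange) mouse, ordered by the sham mean. The value of 0 for Il6 in ON-CR mouse 5 cannot be drawn on a log axis. Cntf is at 112 to 154 in sham mice and at 287 to 426 in ON-CR mice, at the height of Il6st (276 to 327).

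None of the receptor genes among the 10 was called, and for each the groups overlapped. Il6st had values of 3111, 3483 and 3341 in sham mice, against 3627, 3093 and 3063 after ON-CR. The ON-CR mice spanned the sham range, with a log2 fold change of -0.03 (95% interval -0.27 to 0.22, adjusted p = 0.941 by limma). With scaling to the library total the log2 fold change of Il6st became 0.10 (adjusted p = 0.672 by limma). Lifr had values of 994, 858 and 923 in sham mice, against 679, 901 and 726 after ON-CR. Of the ON-CR mice, 4 and 6 lay below all sham mice and mouse 5 among them (log2 fold change -0.28, 95% interval -0.58 to 0.03, adjusted p = 0.373 by limma).

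Il6ra, the IL-6-binding chain, had values of 205, 293 and 330 in sham mice, against 417, 283 and 420 after ON-CR. Here too ON-CR mouse 5 lay among the sham mice, and the others above them (log2 fold change 0.44, 95% interval -0.05 to 0.93, adjusted p = 0.371 by limma). An antisense gene shares 2.8% of the exon bases of Il6ra.

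Of the other receptor chains of the family, 1 of 5 was called higher and 0 lower, against 0.971% and 1.13% of all genes. The chain called was Osmr, which pairs with gp130 for oncostatin M, on chromosome 15 from 6813577 to 6874969. Osmr had values of 288, 260 and 265 in sham mice, against 755, 590 and 982 after ON-CR. Every ON-CR mouse was above 2 times the highest sham mouse, and the means of 271 ± 14.6 and 776 ± 197 (SD, n = 3 each) differed 2.86-fold. The log2 fold change was 1.48 (standard error 0.18, 95% interval 1.08 to 1.89, adjusted p = 0.00396 by limma). It remained called with each mouse left out in turn (adjusted p from 0.000583 to 0.0429 by limma). No stretch of another annotated gene shares its exons.

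Il11ra1, the IL-11 receptor chain, was the one receptor gene with every ON-CR mouse below every sham mouse. Its values were 2074, 1967 and 1976 in sham mice, against 1453, 1643 and 1470 after ON-CR, with log2 fold change -0.40 (95% interval -0.64 to -0.16, adjusted p = 0.0922 by limma). Cntfr, which completes the receptor for CNTF, was at 90.2, 166 and 287 in sham mice, against 249.3, 312 and 255 after ON-CR. The sham mice alone differed by more than 3 times, and the groups overlapped (log2 fold change 0.73, adjusted p = 0.341 by limma). Il27ra, a receptor chain of lymphoid cells, was at 22.3 to 44.1 in sham mice, against 43.9, 24.1 and 131 after ON-CR (adjusted p = 0.553 by limma).

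None of the 6 other ligands and ligand partners in the table was called. Ebi3, a subunit of IL-27, differed by 0.79 in log2 (adjusted p = 0.367 by limma), and Il11 had one of -0.63 (adjusted p = 0.649 by limma). The list had a median of 0.77, and its groups overlapped for each gene.

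Stat3, on chromosome 11 from 100885098 to 100939540, had values of 2087, 2160 and 2253 in sham mice, against 2889, 2322 and 3031 after ON-CR. The groups were apart, with ON-CR mouse 5 close to sham mouse 3 and the other ON-CR mice well above. The means differed 1.27-fold, with a log2 fold change of 0.33 (standard error 0.12, 95% interval 0.06 to 0.61, adjusted p = 0.223 by limma). Its 3′ end overlaps that of Stat5a, on the other strand, by 72 of 9527 exon bases. RNA levels do not show phosphorylation, the step that activates STAT3.

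Socs3 encodes suppressor of cytokine signalling 3, which binds gp130 and blocks the JAK kinases. It lies on chromosome 11 from 117966079 to 117970047. Its values were 87.0, 132 and 147 in sham mice, against 295, 177 and 316 after ON-CR. All ON-CR mice were above all sham mice, with mouse 5 the lowest of them. Means were 122 ± 31.0 and 263 ± 74.7 (SD, n = 3 each), a 2.16-fold difference, and the log2 fold change of 1.09 (standard error 0.27, 95% interval 0.49 to 1.69) had an adjusted p of 0.0755 by limma. Without ON-CR mouse 5 it was 1.35 with an adjusted p of 0.0147 by limma, and with a quality weight for each library the adjusted p was 0.0350.

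The letters TTCNNNGAA, the pattern that STAT dimers bind, read the same on both strands and were found in the promoter window of 1 of the 8 genes, Socs3, 154 bases before the RefSeq start. They were in 8.3% of all windows. GENCODE M21 starts Socs3 further upstream, at 117970047, so this match lies inside the annotated gene. The matches of Cish and Gfap below also lie inside their GENCODE genes. Shown beside the Socs3 match (chr11:117969502-117969530, minus strand) are those of Cish (chr9:107296649-107296677 and, overlapping it, chr9:107296660-107296688, plus strand), another feedback inhibitor, and of Gfap (chr11:102897184-102897212, minus strand), the astrocyte filament gene, since these are STAT-responsive genes described here that also held the letters. Capitals mark 1 match in each line.
Socs3: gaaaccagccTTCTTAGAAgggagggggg
Cish, first match: ccgcccagttTTCCTGGAAagttcttgga
Cish, second match: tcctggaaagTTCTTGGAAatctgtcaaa
Gfap: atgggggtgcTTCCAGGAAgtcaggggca
Of 18 windows of the STAT3 target list described below, 1 held these letters, that of Gfap, against 8.3% of all windows. The letters were also in the window of Il31ra, another receptor gene of the family. It is not printed, and its log2 fold change of -0.38 was not called.

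Among JAK kinases and other STAT genes 0 of 10 were called, with a median log2 fold change of 0.07. Stat4 (1.45, adjusted p = 0.201 by limma) and Jak3 (0.81, adjusted p = 0.247 by limma) were higher in every ON-CR mouse than in every sham mouse. Stat4 shares 1033 of its 3872 exon bases with another gene on the same strand. Stat5b differed by -0.21 in log2 (adjusted p = 0.531 by limma). Jak1, the main kinase of gp130, which was singled out after its values were seen, was between 2083 and 2478 in all 6 mice (log2 fold change 0.02, 95% interval -0.22 to 0.26).

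Among the other brakes of the pathway (SOCS and PIAS proteins and phosphatases) 0 of 15 were called, with a median log2 fold change of 0.09. For 4 the ON-CR mice were all above the sham mice, against 10.5% of all genes. Cish was nearest to a call, at 44.6, 31.0 and 44.8 in sham mice, against 80.8, 72.3 and 117 after ON-CR (log2 fold change 1.14, standard error 0.29, adjusted p = 0.0850 by limma). The groups were well apart, and the 2.25-fold difference of the means was close in size to that of Socs3. Ptpn6, which encodes the phosphatase SHP-1 of blood-derived cells and microglia, was at 412, 380 and 378 in sham mice, against 802, 447 and 890 after ON-CR (log2 fold change 0.81, adjusted p = 0.112 by limma). Without ON-CR mouse 5 its adjusted p was 0.00246 by limma. Socs1 (log2 fold change 0.52) and Pias3 (-0.40) were not called (adjusted p = 0.681 and 0.283 by limma).

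**Figure D4:**
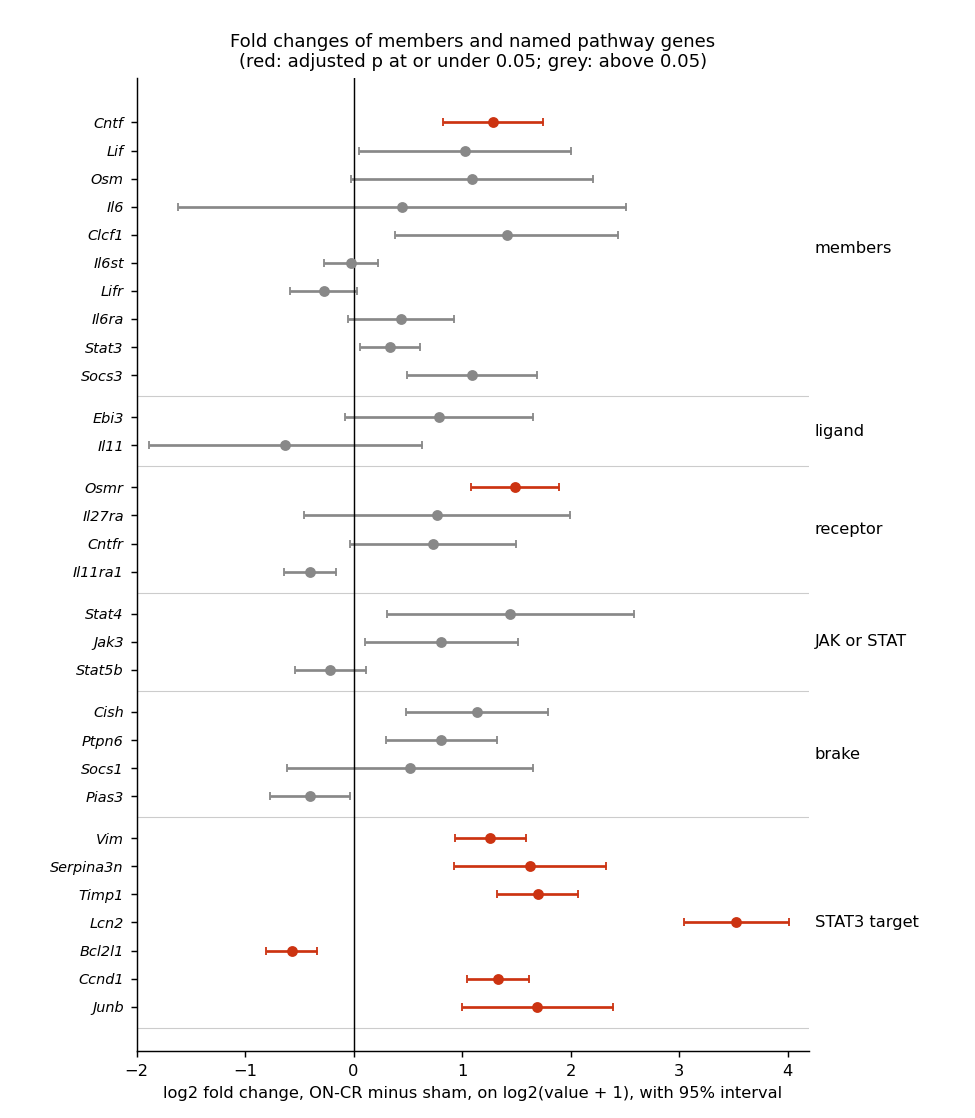
Log2 fold change of ON-CR over sham on log2(value + 1), with its 95% interval, for the 10 genes and the named genes of each pathway list. Red marks an adjusted p at or under 0.05 by limma and grey a larger one. Red genes are Cntf, Osmr and the 7 STAT3 targets, of which Bcl2l1 alone is on the negative side.

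Of 17 genes known as STAT3 targets in other settings, 6 were called higher and 1 lower, against 0.971% and 1.13% of all genes. The ON-CR mice were all above the sham mice for 13 and all below for 1, against 10.5% and 11% of all genes. The median log2 fold change was 1.26. This list too was chosen with earlier results of these data known, so its counts are description only. Many of these genes also answer to other transcription factors, and some mark reactive astrocytes or dividing cells, so the list is not a measure of STAT3 activity alone. The number called was 4 without sham mouse 2, without ON-CR mouse 4 or without ON-CR mouse 6.

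Lcn2, which encodes the iron-scavenging lipocalin 2 of reactive astrocytes, differed most. Its values were 60.5, 38.1 and 50.7 in sham mice, against 611, 647 and 480 after ON-CR, an 11.6-fold difference of the means (log2 fold change 3.53, standard error 0.22, adjusted p = 0.000136 by limma). Timp1, an inhibitor of matrix metalloproteinases, went from 155 ± 17.8 to 506 ± 67.6 (SD, n = 3 each), with log2 fold change 1.70 (adjusted p = 0.00150 by limma). Vim, the intermediate filament vimentin, went from 11381 ± 791 to 27569 ± 5174 (SD, n = 3 each), with log2 fold change 1.26 (adjusted p = 0.00300 by limma). Ccnd1, the G1 cyclin D1, went from 1400 ± 171 to 3518 ± 367 (SD, n = 3 each), with log2 fold change 1.33 (adjusted p = 0.00129 by limma). Lcn2, Timp1, Vim and Ccnd1 stayed called whichever mouse was left out. LTO1 overlaps 23.4% of the exon bases of Ccnd1 on the other strand.

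Serpina3n, a secreted protease inhibitor of reactive glia, was at 4488, 2985 and 1595 in sham mice, against 8140, 6962 and 11091 after ON-CR (log2 fold change 1.63, adjusted p = 0.0296 by limma). It was not called without sham mouse 2 or 3 or ON-CR mouse 4 or 6 (adjusted p from 0.0546 to 0.211 by limma), nor in a robust fit (0.177). Junb, a subunit of AP-1, was at 23.3, 35.4 and 49.8 in sham mice, against 133, 111 and 100.7 after ON-CR (log2 fold change 1.69, adjusted p = 0.0248 by limma). Its call was lost without sham mouse 1 or 2 or ON-CR mouse 4 or 6 (adjusted p from 0.0722 to 0.138 by limma). Both genes kept the ON-CR mice apart from the sham mice.

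Bcl2l1, which encodes the survival protein Bcl-xL, went the other way. Its values were 9041, 10263 and 10311 in sham mice, against 6760, 6386 and 6778 after ON-CR, with log2 fold change -0.57 (standard error 0.11, adjusted p = 0.0251 by limma). The call was lost without sham mouse 2 or 3 or ON-CR mouse 4 or 6 (adjusted p from 0.0608 to 0.161 by limma) and with scaling to the library total (0.0583). Oligodendrocyte markers were lower in the same mice, with 6 of 7 called lower, against 1.13% of all genes. Their summed values were 1222638 to 1766608 in sham mice and 591675 to 696080 in ON-CR mice. Their part in the fall of Bcl2l1 was not tested. Gfap, singled out after its values were seen, was between 99186 and 123408 in sham mice and between 156465 and 202957 in ON-CR mice (log2 fold change 0.64, adjusted p = 0.0859 by limma). It was called with scaling to the library total (adjusted p = 0.0151 by limma) and in a robust fit (0.0202), and in none of the other 13 alternatives.

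**Figure D5:**
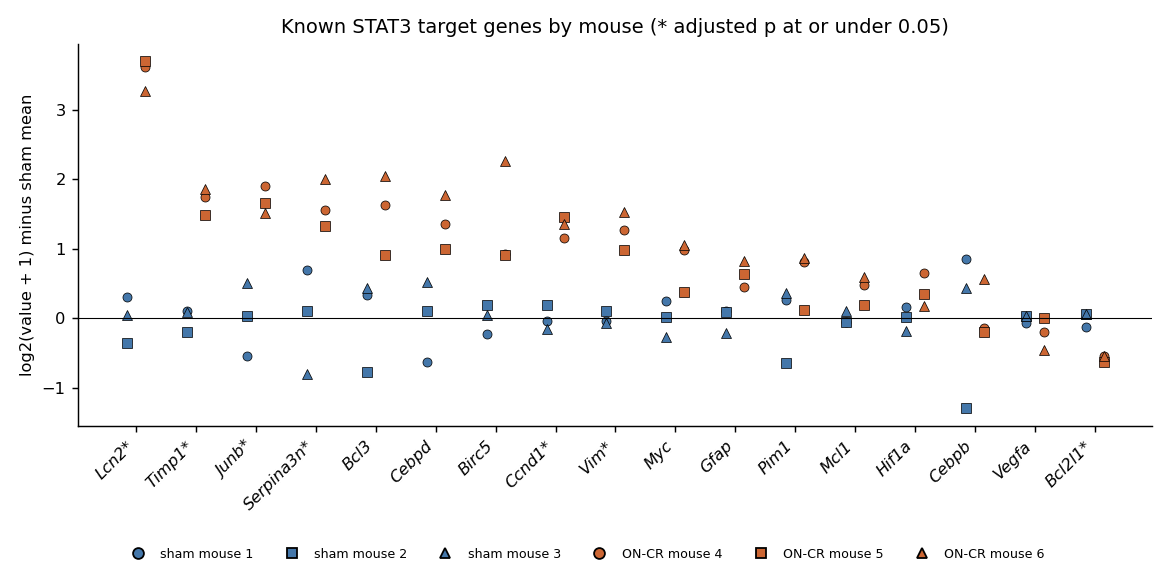
Known STAT3 target genes in each mouse, as log2(value + 1) minus the sham mean of the gene, ordered by fold change, with an asterisk for an adjusted p at or under 0.05 by limma. Sham mice (blue) scatter around 0, and ON-CR mice (orange) lie above all sham mice for 13 of the 17 genes and below them for Bcl2l1.

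For 9 of the 10 genes, all but Osm, ON-CR mouse 5 was the ON-CR mouse with the value nearest to the sham mean. The margin over mouse 4 was small for Cntf (308 against 313) and for Il6 (0 against 3.99, with a sham mean of 1.96). Il6st had no clear group difference, at 3093 in mouse 5 against a sham mean of 3312. Mouse 5 had the lowest summed microglia and macrophage markers of the ON-CR group, at 21218 against 31593 in mouse 4 and 32057 in mouse 6. It was also the lowest ON-CR mouse for summed markers of T cells, B and plasma cells, oligodendrocytes, fibroblasts and endothelial cells. Markers of astrocytes (126006 in mouse 4, 117229 in mouse 5 and 109174 in mouse 6), neutrophils and Schwann cells were not lowest in mouse 5. Whether the number of any of these cells had a part in the values of mouse 5 was not tested. Markers of neutrophils, a source of oncostatin M, were at 77.0 to 337 in sham mice and 165 to 286 in ON-CR mice, and markers of Schwann cells, a source of CNTF in peripheral nerve, at 289 to 387 and 265 to 322, both with overlap.

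Genes outside the lists whose pattern over the 6 libraries was most like that of a member were sought among 14334 genes with a mean value of at least 50. For Cntf they included Xkr8 and Gm15484 (Pearson r of 0.998 and 0.997 on log2(value + 1)), for Clcf1 Pcdhgc4, Gm8130 and Alg13 (0.986, 0.984 and 0.984), and for Socs3 U2surp, Cbl and Gm12989 (0.9965, 0.996 and 0.993). With 6 libraries in 2 groups such values are common, as 134, 52 and 122 genes reached 0.95 with Cntf, Clcf1 and Socs3. They describe these libraries and carry no test.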

How the data were processed

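Per the labels and the study's methods, RNA of optic nerves from perfused mice was made into libraries with the SMARTer Ultra Low kit from 10 ng of total RNA. The authors aligned and quantified reads with DRAGEN 3.9.3-8 (Ensembl release 101), assigned them to mm10 gene models of Ensembl release 102, and in Partek Flow 10.0 normalized each library by its median. The values the authors deposited are thus a normalized signal per gene, not raw counts. The value of 1 read was taken as the most frequent value near 1 in each library (0.885 to 1.06). Dividing by it gave whole reads (within 0.01) for 64.3% to 66.6% of the values above 0, too few for a count test, so these estimated reads serve for depth only. They cover counting error only, and 3 reads corresponded to 2.66 to 3.18 normalized values.

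All 25755 genes were tested with limma 3.58.1 in R 4.3.3 on log2(value + 1), with a mean-variance trend, sham against ON-CR, two-sided, with Benjamini-Hochberg adjustment. The code was checked on simulated counts with the same dispersion for every gene. That setting lacks the outlying libraries and the sex difference of these data, so it does not test the calls made here. Fold changes on log2(value + 1) understate the change of low genes. With 3 mice against 3, an exact permutation test of 1 gene cannot reach 0.05. The p-values rest on the spread between these mice, moderated toward the trend over all genes. Replicate libraries differed by more than sampling noise (chi-square per degree of freedom 15.1 to 42.6). Alternatives were pseudocounts of 0.1, 0.5 and 2, a mean value of at least 10, upper quartile, library total and TMM scaling, a robust fit, quality weights and leaving out each mouse.

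Members and lists were chosen with earlier results of these data known. Named pathway genes were those called, filled up to 4 per list by absolute fold change among genes with a mean of at least 10. Zfp91, Jak1 and Gfap were named after their values were seen. Positions, exon lengths and overlaps are from GENCODE M21 (GRCm38, the assembly of mm10), which is not the authors' release. Promoters are from RefSeq (GRCm38.p6). Il31 is not in the table. Some genes that the naming rule picked are not reported here.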

Additional observations from a re-analysis of the deposited data

How the results depend on the processing

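Of the 10 genes, Cntf kept its call under all 9 alternatives that used 6 mice and lost it in 4 of 6 that left out a mouse. The number of the 10 called was 2 with library quality weights and from 0 to 2 with a mouse left out. Of the other brakes 1 was called with quality weights, and 0 to 1 with a mouse left out. From 4 to 9 STAT3 targets and from 67 to 854 of all genes were called with a mouse left out. The log2 fold change of Il6 was -0.19 with a pseudocount of 0.1 and from -0.34 to 1.42 with a mouse left out. Values near 0 changed sign with a mouse left out, Il6st from -0.10 to 0.02 (0.0110, 0.0121 and 0.0179 without ON-CR mouse 5, sham mouse 2 and ON-CR mouse 6), Jak1 from -0.0390 to 0.0862 and Zfp91 from -0.13 to 0.0125. Library total scaling moved the median log2 fold change of all genes from 0.03 to 0.15, and gave 0.10 for Il6st and 0.0713 for Zfp91, below that median. The cause of these changes was not tested. No paired analysis was possible because the labels give no mouse number that both groups share. Depth limits Il6, Osm and Lif most, which had at most 30 estimated reads in any library.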
